A study of Homo sapiens with 2 samples.

Results

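The transcripts described here encode 10 sensors through which intestinal L-cells are known to register the contents of the gut lumen and the hormones that follow a meal: the fatty acid receptors FFAR1, FFAR2, FFAR3 and FFAR4, the lipid amide receptor GPR119, the bile acid receptor GPBAR1, the taste receptor subunit TAS1R3, the taste G protein GNAT3, the incretin receptor GIPR and the calcium-sensing receptor CASR. They were chosen by name, as genes linked to the secretion of glucagon-like peptide-1 (GLP-1), though with earlier results of these data known. Of the 10 genes, 6 had a row among the 19989 genes of the expression table, and the 4 without a row, FFAR1, FFAR3, GPR119 and CASR, were counted as not detected. Any limit printed for these 4 assumes that a missing row stands for a count of 0, which the table itself does not show. The cells were hNCI-H716, an established line from a human adenocarcinoma of the cecum that serves as an L-cell model, plated on Matrigel and then cultured for 48 h in DMEM with serum in low (5.5 mM) or high (25 mM) glucose. Each concentration had 1 library of polyadenylated RNA, so no difference between the concentrations has a replicate check, none was tested, and all intervals cover counting error only.

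L-cells release GLP-1 when nutrients reach them, and much of that response passes through G protein-coupled receptors. GPBAR1, GPR119 and GIPR act through the stimulatory G protein and cAMP, FFAR1 and FFAR4 mainly through the Gq protein and calcium, FFAR2 through Gq and the inhibitory Gi proteins, FFAR3 through Gi, and CASR through Gq and Gi. In taste cells, TAS1R3 pairs with TAS1R2 to sense sweet compounds or with TAS1R1 to sense amino acids, and signals through gustducin, the G protein whose alpha subunit is encoded by GNAT3.

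Levels are given as CPM, counts of a gene per 1000000 counts of its library, after scaling by the TMM method. The library from low glucose held 21757926 estimated counts and that from high glucose 19456617, and a count of 0 allows up to 0.138 CPM and 0.154 CPM, respectively (3 counts of the total). The cells carried several defining L-cell transcripts, with the proglucagon gene GCG reaching 1954 CPM (low) and 1808 CPM (high). Among markers that averaged 1 CPM or more, the median log2 ratio, high over low glucose, was -0.03 for L-cells and -0.09 for other gut cells. Of 12 L-cell markers, 8 (66.7%) had more than 3 counts in both libraries, near the 63.4% of annotated protein-coding genes over that limit. PYY, NEUROD1, NKX2-2 and INSL5 had no row. Of 15 markers of other gut cells, 7 (46.7%) passed that limit, among them the D-cell hormone gene SST at 547 and 514 CPM. The markers of other gut endocrine cells, GIP (K-cells), CCK (I-cells) and TPH1 (enterochromaffin cells), had no row. Of the goblet cell genes, TFF3 was at 207 and 155 CPM, MUC2 at 0.334 and 0.269 CPM and CLCA1 at 0.703 and 1.04 CPM. Of the enterocyte genes, SI was at 117 and 124 CPM and FABP2 at 0.242 and 0.217 CPM, while ALPI and APOA4 had no row. Of the tuft cell genes, AVIL alone passed the limit, at 0.980 and 0.936 CPM, and POU2F3 had no row. SH2D6 was at 0.150 and 0.115 CPM, TRPM5 at 0.0582 and 0.0634 CPM, and DCLK1 had 0 counts in low and 2 in high glucose. A possible part of other cell types in the receptor values was not tested.

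All 6 genes with a row had more than 3 estimated counts in both libraries. Among 19951 annotated protein-coding genes, 63.4% passed the same limit and 70.7% had a row, so the share of the receptors that was detected lay near that of protein-coding genes at large. The estimated counts of all 6 were whole to within 0.05 in both libraries. A mean of at least 1 CPM was reached by 5 of the 10, against 58% of annotated protein-coding genes.

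**Figure D1:**
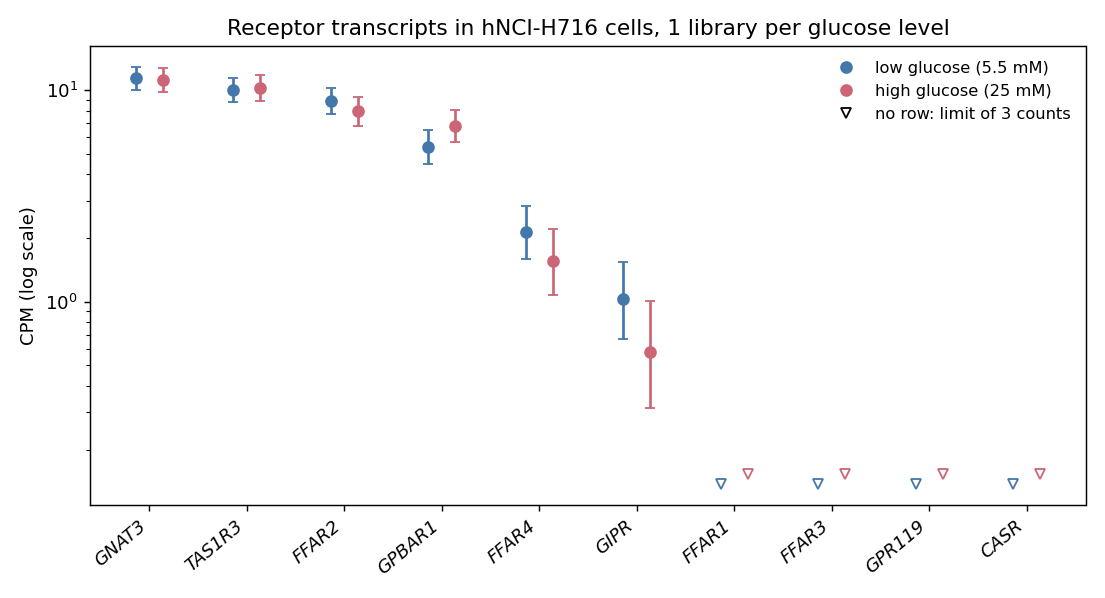
CPM (log scale) of the 10 genes in the low glucose (blue) and high glucose (red) library, with 95% Wilson intervals; open triangles mark the limit of 3 counts, 0.138 and 0.154 CPM, for the genes without a row. The intervals of the libraries overlap for all 6 detected genes, and the lowest, GIPR, lies above the triangles in both libraries.

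Of the receptors for short-chain fatty acids, the fermentation products of gut bacteria, FFAR2 was detected and FFAR3 was not. FFAR2 gave 192 counts in low glucose, or 8.85 CPM (Wilson 95% bounds 7.67 to 10.2), and 155 counts in high glucose, or 7.97 CPM (6.80 to 9.31). The high glucose library was slightly the lower, with a log2 ratio of CPM, high over low, of -0.15 (exact binomial 95% bounds -0.47 to 0.16), and the intervals of the libraries overlapped. In such bulk RNA, fewer expressing cells and less RNA per cell cannot be told apart. FFAR3 shared 64.3% of its 75-base transcript windows with GPR42, its near-identical neighbour, and the study's counting divides reads from such parts by estimate; neither FFAR3 nor GPR42 had a row. FFAR2 shared 0 windows with another gene.

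FFAR2 and FFAR3 lie in a cluster with FFAR1 and GPR42 on the plus strand of chromosome 19 (GRCh38), within 100.2 kb. FFAR1 spans 35351552 to 35353862, FFAR3 35358460 to 35360485, GPR42 35370929 to 35372962 and FFAR2 35443907 to 35451767. FFAR2 was the only member of this cluster with a row. Of the 10 protein-coding genes nearest to it, 5 on each side, 2 had a row and 1 had a mean of at least 1 CPM.

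Of the receptors for long-chain fatty acids, FFAR4 was detected at a low level and FFAR1 was not. FFAR4 (chromosome 10, 93566665 to 93604480, plus strand) gave 46 counts in low glucose, or 2.13 CPM (1.59 to 2.82), and 30 counts in high glucose, or 1.55 CPM (1.08 to 2.20). Its log2 ratio was -0.46 (-1.17 to 0.23). The low glucose library was the higher, and a decrease of 2-fold in high glucose remained within the interval. The RBP4 gene lies on the opposite strand inside the span of FFAR4, shares 0 exonic bases with it and was at 5.31 and 5.76 CPM. FFAR1 consists of a single annotated exon of 2311 bases and shared 0 windows with another gene; at its length, the limit of 3 counts corresponds to 0.0598 CPM per kb in low glucose and 0.0666 CPM per kb in high glucose.

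GPR119, which senses oleoylethanolamide and monoacylglycerols, had no row. It has a single annotated exon of 1008 bases (chromosome X, 130384440 to 130385447, minus strand). Of its 10 nearest protein-coding genes, 8 had a row and 7 had a mean of at least 1 CPM, the highest being AIFM1 at 121 CPM. At this annotated length, the limit per length of GPR119 is the highest among the genes without a row. It is 0.137 CPM per kb in low glucose and 0.153 CPM per kb in high glucose. The RefSeq window around the start of GPR119 (130385625 to 130385924) lies upstream of that exon. Its transcripts may therefore be longer than annotated, which would lower this limit.

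The bile acid receptor GPBAR1, also called TGR5 (chromosome 2, 218259496 to 218263859, plus strand), was detected in both libraries, with the higher level in high glucose. It gave 117 counts in low glucose, or 5.40 CPM (4.49 to 6.45), and 132 counts in high glucose, or 6.79 CPM (5.71 to 8.03). The log2 ratio was 0.33 (-0.04 to 0.70), and the interval held 0. Among the 500 genes closest to GPBAR1 in mean CPM, 78.6% had a log2 ratio of smaller size. Its exons overlap those of 0 other genes.

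Other transcripts of bile acid sensing and transport were measured beside it. NR1H4, the nuclear bile acid receptor FXR, reached 6.92 CPM under low and 7.40 CPM under high glucose, with a log2 ratio of 0.10 (-0.24 to 0.44). S1PR2, a membrane receptor that also responds to conjugated bile acids, was at 3.97 and 4.32 CPM. Of the 12 genes of the bile acid list, 7 had more than 3 counts in both libraries, 5 had a mean of at least 1 CPM, and 0 of these 5 differed by 2-fold or more. The median log2 ratio of those 5 was 0.10, against -0.0064 for all 13052 genes that reach that mean. The export pumps ABCC2 and ABCC3 had the highest levels per length, with 8.11 and 6.83 CPM per kb. SLC10A2, the ileal bile acid uptake transporter, was under that limit in both libraries, with 0 counts in low glucose.

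The taste genes TAS1R3 and GNAT3 were detected in both libraries and had the smallest log2 ratios, in size, of the 6 genes. TAS1R3 (chromosome 1, 1331314 to 1335306, plus strand) gave 217 counts in low glucose, or 10.0 CPM (8.75 to 11.4), and 199 counts in high glucose, or 10.2 CPM (8.89 to 11.7). Its log2 ratio was 0.03 (-0.25 to 0.32), so a change of 2-fold in either direction lay outside the counting interval. The last 31 bases of its annotated exons are shared with DVL1 on the opposite strand, which was at 101 and 92.9 CPM. The library kit does not mark strand, so reads within these 31 bases cannot be told apart.

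GNAT3 (chromosome 7, 80458671 to 80512020, minus strand) gave 247 counts in low glucose, or 11.4 CPM (10.0 to 12.9), and 217 counts in high glucose, or 11.1 CPM (9.75 to 12.7). The log2 ratio was -0.03 (-0.30 to 0.24). Its 8 exons lie inside the 310 kb span of CD36, which encodes a fatty acid transporter and is read from the opposite strand. CD36 reached 218 CPM under low and 225 CPM under high glucose. GNAT3 shares 0 exonic bases with CD36, and of the 24 annotated CD36 transcripts 1 runs across GNAT3. Without strand, reads of GNAT3 that cross no splice junction and intronic reads of that CD36 transcript cannot be told apart. The part of such CD36 reads in the value of GNAT3 was not tested.

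**Figure D2:**
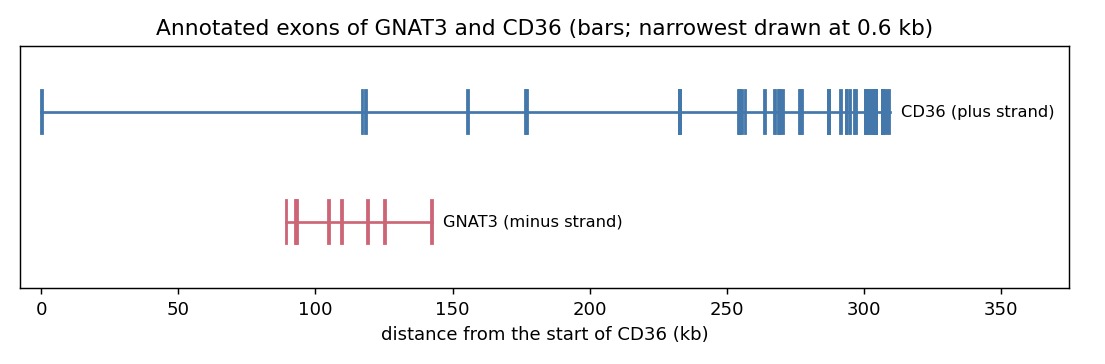
Annotated exons (bars) of CD36 on the plus strand and GNAT3 on the minus strand, by distance in kb from the start of CD36. The exons of GNAT3, spread over 53.4 kb, overlap none of CD36, and CD36 exons that lie within its span fall in its introns.

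Of the partners of TAS1R3 and gustducin in taste cells, some were detected and others were not. TAS1R1 and TAS1R2 had no row, nor did GNG13, the gamma subunit of gustducin, or the ATP-release channel gene CALHM1. CALHM3, the channel partner of CALHM1, passed the limit with 0.933 and 1.24 CPM, as did GNB3, a beta subunit that pairs with gustducin, with 0.349 and 0.278 CPM. TRPM5, the cation channel at the end of the cascade, had 1 count in each library (0.0582 and 0.0634 CPM). PLCB2, the taste phospholipase, was at 0.0582 and 0.115 CPM, likewise below 3 counts in either library. ITPR3, the calcium release channel of the cascade, was at 2.05 and 2.23 CPM, and TRPM4, a cation channel related to TRPM5, at 10.1 and 10.6 CPM. GNB1, a beta subunit used by many G proteins, had the highest level per length of this list with 459 CPM per kb, followed by ENTPD2, an ATP-degrading enzyme, with 8.81 CPM per kb. Of the 13 genes of the list, 6 passed the limit in both libraries, 5 averaged at least 1 CPM, and 0 of these were past 2-fold (median log2 ratio 0.07).

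Few bitter taste receptors were detected. Of 25 TAS2R genes, 3 had a row and 1, TAS2R14, had more than 3 counts in both libraries. TAS2R14 reached 1.66 CPM (1.19 to 2.28) under low and 2.18 CPM (1.61 to 2.93) under high glucose. TAS2R20, at 0.150 and 0.0634 CPM, and TAS2R31, at 0.0582 and 0.0634 CPM, rested on at most 3 counts in either library, and the log2 ratio of TAS2R14 was 0.40. TAS2R genes are close paralogs, between which the study's counting divides reads by estimate.

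GIPR, the receptor for glucose-dependent insulinotropic polypeptide (GIP), had the fewest counts of the 6 genes in both libraries. The study used GIP to stimulate murine L-cells. GIPR (chromosome 19, 45668244 to 45683724, plus strand) gave 22 counts in low glucose, or 1.02 CPM (0.669 to 1.53), and 11 counts in high glucose, or 0.577 CPM (0.315 to 1.01). Its log2 ratio was -0.83 (-2.03 to 0.26), the largest in size of the 6, and also the one with the widest interval. The ratio shrank to -0.36 with a pseudocount of 1 CPM and to -0.63 with 0.25 CPM. The interval held 0 and also a decrease of 2-fold, but not an increase of 2-fold, in high glucose. Its mean of 0.801 CPM was under the minimum of 1 CPM that was set for reading a ratio. CASR, the calcium-sensing receptor through which L-cells also respond to amino acids (chromosome 3, 122183683 to 122291629, plus strand), had no row, although its merged exons are the longest of the 10 genes at 12005 bases.

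**Figure D3:**
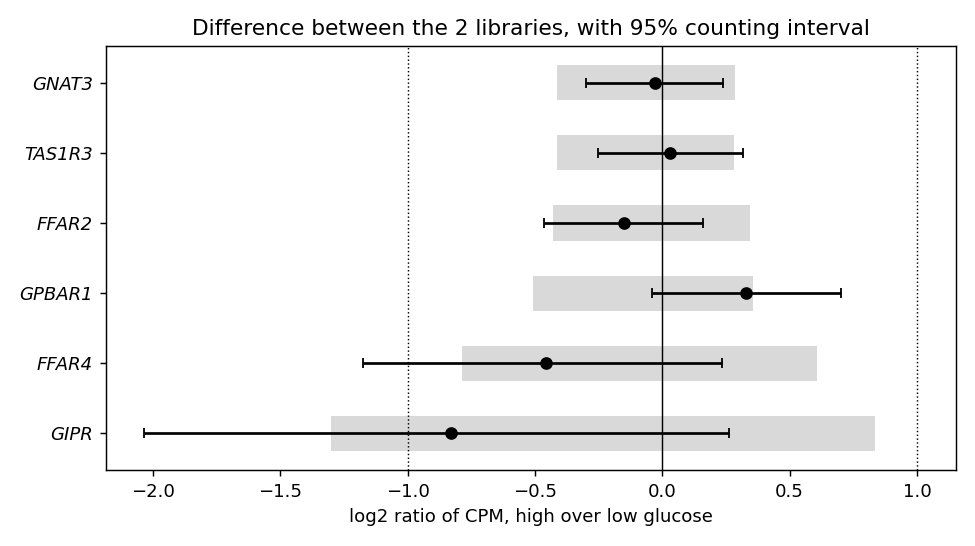
Log2 ratio of CPM, high over low glucose, for the 6 detected genes (points) with the 95% exact binomial interval from counts; grey bars span the 5 to 95 percentile range of the log2 ratios of the 500 genes closest in mean CPM, and dotted lines mark 2-fold. All 6 intervals hold 0, and all 6 points lie within their grey bars.

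None of the 5 detected genes that averaged at least 1 CPM differed by 2-fold or more between the libraries, and neither did GIPR below that mean. Over all 13052 genes with such a mean, 0.835% did, 0.215% higher and 0.621% lower in high glucose, so a count of 0 among 5 genes is near the background. The counting interval of the log2 ratio held 0 for all 6 genes. It excluded 0 for 31.7% of the 13052 genes, and for 15.1% of the 3969 genes with a mean from 1 CPM up to that of GNAT3. The intervals of GNAT3, TAS1R3, FFAR2 and GPBAR1 lay wholly within 2-fold in either direction, and those of FFAR4 and GIPR did not. Of the 5 genes, GPBAR1 and TAS1R3 had ratios above 0 and GNAT3, FFAR2 and FFAR4 had ratios below 0, with a median log2 ratio of -0.03. The 6 genes together made up 38.8 CPM under low and 38.3 CPM under high glucose.

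Between genes, levels were compared per kb of transcript, since a longer transcript gives more reads. GNAT3 was the highest, at 9.72 CPM per kb, followed by FFAR2 at 4.02, GPBAR1 at 3.65, TAS1R3 at 2.95, FFAR4 at 0.511 and GIPR at 0.497 CPM per kb (means of the libraries). GNAT3 stood apart from FFAR2, and TAS1R3 from FFAR4, with intervals that did not overlap in either library. FFAR2 and GPBAR1 had overlapping intervals in both libraries, as did FFAR4 and GIPR. GPBAR1 and TAS1R3 overlapped in low glucose but not in high glucose, where GPBAR1 was at 4.07 CPM per kb (3.43 to 4.82) and TAS1R3 at 2.98 CPM per kb (2.59 to 3.42). With the length of the merged exons in place of the median transcript, GPBAR1 fell below TAS1R3, at 2.26 CPM per kb, and GIPR stood at 0.169 CPM per kb. Among the 14105 protein-coding genes with a row, the median was 10.6 CPM per kb, and GNAT3 stood at the 48.5 percentile, FFAR2 at the 34.4 percentile and GIPR at the 17.7 percentile.

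The RefSeq promoter windows, from 250 bases before to 50 bases after a start site, covered 9 of the 10 genes, FFAR3 being the one without an entry. They were searched for CACGTG, the canonical E-box to which the clock factor BMAL1 is known to bind with CLOCK, which reads the same on both strands, and for CpG dinucleotides. CACGTG occurred in 1 of 10 windows, that of FFAR2, against 7.26% of all 35116 windows. The median window held 14 CpG, and among the 9 genes with a window FFAR4 alone exceeded it, with 23; TAS1R3 and GIPR each had 12, GNAT3 had 2, and FFAR2 and GPR119 each had 1. The number of CpG did not separate detected genes, with 1 to 23, from those without a row, with 1, 6 and 9 for GPR119, CASR and FFAR1. The sequences below are shown because they hold the hexamer (FFAR2), the most CpG of the detected genes (FFAR4) and the start region of the gene with the highest level (GNAT3). They are written 5′ to 3′ in the direction of the gene, from GRCh38.p14; the RefSeq start of FFAR2 lies inside the GENCODE span given above. Capitals mark CACGTG in FFAR2 (chr19:35448007-35448306, plus strand; the hexamer begins at base 204 of the window) and CG in FFAR4 (chr10:93566415-93566714, plus strand) and GNAT3 (chr7:80512015-80512314, minus strand). A match is a match of letters, and binding was not measured in these libraries.
FFAR2: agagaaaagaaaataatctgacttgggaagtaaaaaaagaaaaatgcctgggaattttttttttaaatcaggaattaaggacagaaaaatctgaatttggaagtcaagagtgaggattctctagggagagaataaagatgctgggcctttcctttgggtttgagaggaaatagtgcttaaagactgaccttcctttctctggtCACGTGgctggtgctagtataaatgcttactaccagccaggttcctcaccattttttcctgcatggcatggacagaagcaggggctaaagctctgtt
FFAR4: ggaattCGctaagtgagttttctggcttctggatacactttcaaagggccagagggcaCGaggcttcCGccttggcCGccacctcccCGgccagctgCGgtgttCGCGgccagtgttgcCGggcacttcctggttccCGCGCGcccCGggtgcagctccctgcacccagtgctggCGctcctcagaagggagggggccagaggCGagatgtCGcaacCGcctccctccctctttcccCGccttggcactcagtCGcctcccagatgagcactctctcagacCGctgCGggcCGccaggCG
GNAT3: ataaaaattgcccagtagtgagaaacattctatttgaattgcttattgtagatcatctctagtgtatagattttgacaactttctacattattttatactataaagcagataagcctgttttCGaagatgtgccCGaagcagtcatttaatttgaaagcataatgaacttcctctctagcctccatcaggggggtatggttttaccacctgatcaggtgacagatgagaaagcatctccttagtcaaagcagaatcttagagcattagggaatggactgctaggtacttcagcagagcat

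Downstream of the receptors, most G protein alpha subunits that they use had higher levels per length than any of the 10 genes. GNAS, the stimulatory subunit to which GPBAR1, GPR119 and GIPR couple, reached 3074 CPM under low and 3019 CPM under high glucose, and its mean level was 2482 CPM per kb. The Gq subunits GNAQ and GNA11 had mean levels of 17.4 and 125 CPM per kb, on median annotated lengths of 3545 and 733 bases. Their mean CPM lay closer together, at 61.7 and 91.6. Of the inhibitory subunits, GNAI1 and GNAI2 had mean levels of 97.8 and 91.2 CPM per kb, while GNAI3, at 161 and 184 CPM, stood at 6.34 CPM per kb. Its place below GNAT3 rests on a median annotated coding transcript of 27174 bases, which may be longer than the transcripts present in these cells. The transducin gene GNAT2, a close relative of GNAT3, had 0.339 and 0.269 CPM, and GNAT1 had no row.

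Of the 26 genes of Gs and cAMP signalling, 22 had more than 3 counts in both libraries, and of the 20 that averaged at least 1 CPM, 0 were past 2-fold (median log2 ratio 0.02). After GNAS, PRKAR2A, a regulatory subunit of protein kinase A, had the highest level per length with 175 CPM per kb. That place rests on a median annotated coding transcript of 627 bases. By mean CPM, PRKAR2A (110) was below PRKAR1A (143) and PRKACA (124). Of the 17 genes of Gq and phospholipase C signalling, 12 passed the limit and 0 of the 12 that averaged at least 1 CPM were past 2-fold (median 0.08). GNA11 and PRKCD, a protein kinase C, led that list per length, with 125 and 53.5 CPM per kb. Their median annotated coding lengths were 733 and 777 bases. By mean CPM, PRKCA (239) was the highest of that list, with GNA11 at 91.6 and PRKCD at 41.5. Of the 7 genes of the Gi family and transducin, 6 passed the limit and 0 of 5 were past 2-fold (median 0.01). GNAO1 and GNAI1 were the highest per length, at 111 and 97.8 CPM per kb. By mean CPM, GNAI1 (250) was the highest, and GNAO1, with a median length of 859.5 bases, was at 95.2. Of the 10 arrestins, receptor kinases and receptor partners, 8 passed the limit and 0 of 8 were past 2-fold (median -0.02). RAMP1, a receptor activity-modifying protein, and the receptor kinase gene GRK2 were the highest of these, with 158 and 48.4 CPM per kb.

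**Figure D4:**
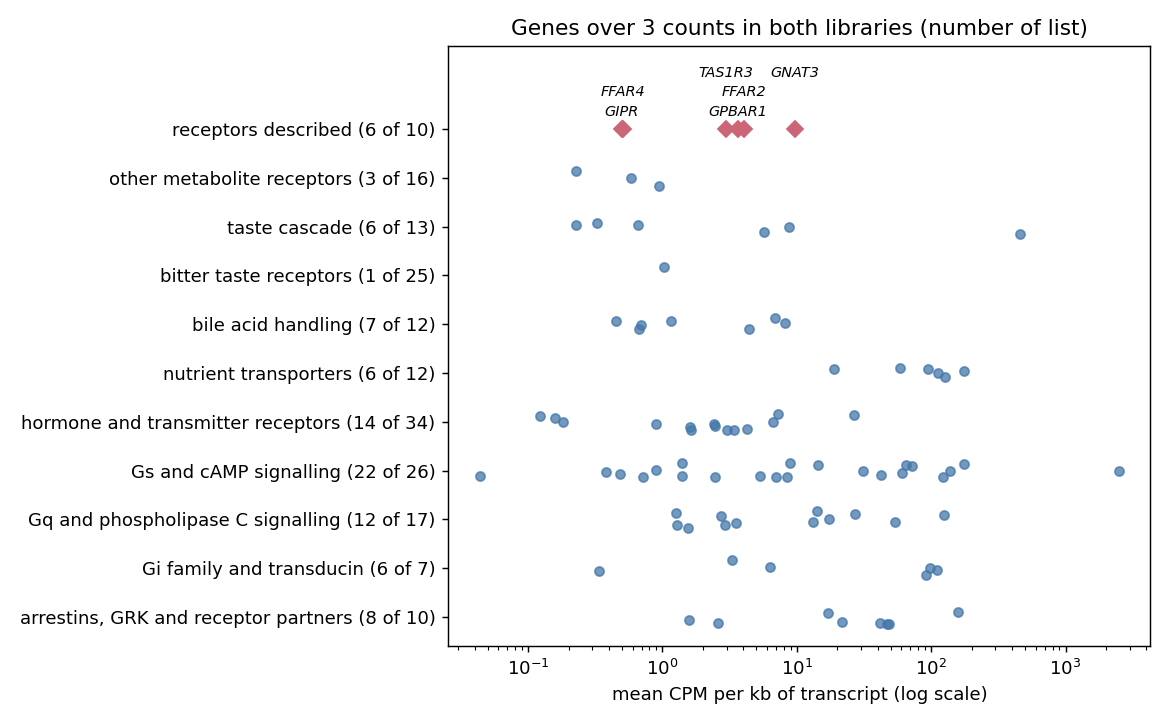
Mean CPM per kb of transcript (log scale) of the detected receptors (red) and of the genes of each pathway list with more than 3 counts in both libraries (blue); the number detected of the number listed is given beside each name. GNAS, at 2482 CPM per kb, is the rightmost point, and the receptors lie between 0.497 and 9.72 CPM per kb.

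Other receptors for metabolites were mostly not detected. Of 16 such genes, 5 had a row, 3 had more than 3 counts in both libraries and 2 had a mean of at least 1 CPM. These 2, which also had the highest levels per length, differed in opposite directions, by less than 2-fold. GPRC6A, an amino acid receptor related to CASR, reached 3.10 CPM (2.43 to 3.92) under low and 1.86 CPM (1.33 to 2.56) under high glucose, a log2 ratio of -0.74 (-1.37 to -0.13). SUCNR1, the succinate receptor, reached 1.85 CPM (1.35 to 2.51) under low and 2.99 CPM (2.30 to 3.85) under high glucose, a log2 ratio of 0.69 (0.09 to 1.31). Their counting intervals excluded 0, as for 15.1% of genes from 1 CPM up to the level of GNAT3, and the difference compares 2 libraries and not the glucose concentrations. The niacin and lactate receptor genes HCAR1, HCAR2 and HCAR3 and the medium-chain fatty acid receptor gene GPR84 had no row. The median log2 ratio of the 2 genes was -0.02.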

How the data were processed

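Polyadenylated RNA of hNCI-H716 cells was measured in 1 library per glucose concentration. The submitters' processing notes name Trim Galore 0.5.0, STAR 2.6.0, RSEM 1.3.1 and edgeR; reads were aligned to GRCh38, genes whose counts over both libraries were under 1 were removed, and the authors deposited CPM and log2 CPM with a small prior. The deposited columns of the authors' log2 difference and fold of high over low glucose were not used, their mean columns are not reported, and the deposited log2 columns served only to check the CPM.

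The steps between low CPM gave the worth of 1 count and so the estimated counts; 73.9% and 74.1% of values under 10 CPM were whole to within 0.05 counts. CPM was divided by TMM factors of 0.998 and 1.002, computed here (Python 3.11.15; numpy 2.4.6; scipy 1.17.1; pandas 2.3.3), and the calculation was tested on simulated data. The simulated counts were whole, and known changes were placed only in genes of at least 10 CPM. FFAR2, GPBAR1, FFAR4 and GIPR lie below that level, so the simulation did not test changes at their levels. CPM carries 95% Wilson intervals and log2 ratios exact binomial intervals, for counting error only. With 1 library a group, no test was run and 2-fold was the call. Lengths (median of coding transcripts) and positions came from GENCODE release 29, on the assembly of the study; 75.6% of symbols matched, with 98.4% of CPM.

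The 10 genes and the lists of partners and markers were chosen with earlier results of these data known. Named were the 10 genes, the 2 highest per kb of each list, genes past 2-fold, the G protein subunits the receptors use, GPR42 and overlapping genes; other list genes, as well as AIFM1, were chosen after their values were seen. With 2 libraries no likeness of pattern was computed. Alternatives were other scalings, pseudocounts, filters, limits and lengths.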

Additional observations from a re-analysis of the deposited data

How the results depend on the processing

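Of 193 values recomputed over 46 results, 185 moved by less than the counting interval, the typical counting error of a list or, where genes were counted, a factor of 1.5. Some list medians near 0 changed sign within that error: without the filter on low values, the median log2 ratio of the other metabolite receptors went from -0.02 to 0.26 and that of the hormone and transmitter receptors from -0.03 to 0.01; at a mean of at least 10 CPM, that of the bile acid list went from 0.10 to -0.08 and that of the L-cell markers from -0.03 to 0.0030. Per kb of transcript, the choice of length moved GPBAR1 from 3.65 to 2.26 CPM with the merged exons and 3.04 CPM with the longest transcript, and GIPR from 0.497 to 0.169 and 0.243 CPM; both genes have several annotated transcripts of unequal length. The number of list genes past 2-fold, 1 in the main setting, was 10 with no filter on low values and 0 with a pseudocount of 1 CPM, with 0.25 CPM or at a mean of at least 10 CPM; by construction, these settings add low genes, shrink their ratios or leave them out. Leaving out a library gives the value of the other, from 0.577 to 1.02 CPM for GIPR and from 5.40 to 6.79 CPM for GPBAR1. Part of the 185 was fixed in advance. GNAT3 and TAS1R3 each have 1 annotated transcript, so the choice of length could not move them. Scaling factors lay between 0.998 and 1.002, so a change of scaling could move values only slightly. Depth limits GIPR and FFAR4 most. No paired analysis was possible because there was 1 library for low and 1 for high glucose.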

Other observations

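Receptors through which hormones and nerves act on L-cells were described beside the nutrient receptors. Of 34 genes, 14 had more than 3 counts in both libraries and 12 had a mean of at least 1 CPM, with a median log2 ratio of -0.03. CHRM3, the muscarinic acetylcholine receptor, had the highest level per length, with 60.8 CPM under low and 62.0 CPM under high glucose, or 26.8 CPM per kb. ADORA2B, an adenosine receptor, was second per length, at 10.8 and 14.2 CPM (7.19 CPM per kb), with a log2 ratio of 0.39 (0.14 to 0.65). The leptin receptor gene LEPR went the other way, at 11.1 and 8.95 CPM, with a log2 ratio of -0.31 (-0.60 to -0.02). Of the 12 genes, the counting interval lay above 0 for 2 and below 0 for 1. It excluded 0 for 31.7% of all 13052 genes with such a mean. SSTR2, a receptor for somatostatin, was the only one past 2-fold of the 87 list genes that averaged at least 1 CPM, a share near the 0.835% of all genes, at 0.795 CPM (0.489 to 1.25) under low and 1.65 CPM (1.16 to 2.32) under high glucose, and its log2 ratio of 1.06 had an interval from 0.18 to 2.01. With a pseudocount of 1 or 0.25 CPM it was no longer past 2-fold, and with no filter on low values 10 list genes were. The GLP-1 receptor gene GLP1R had no row, nor did GLP2R and the glucagon receptor gene GCGR.

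Of 12 nutrient transporter genes, 6 had a row and all 6 passed the limit in both libraries, with 0 past 2-fold. Their median log2 ratio was -0.01, but the counting interval lay above 0 for 1 gene and below 0 for 3, and it excluded 0 for 48.0% of the 4633 genes with a mean between those of the lowest and the highest of the 6 transporters. The lowest ratios were those of SLC7A5 and SLC3A2, which together form an amino acid exchanger. SLC7A5 reached 308 CPM under low and 193 CPM under high glucose, a log2 ratio of -0.67 (-0.73 to -0.62). SLC3A2 reached 153 and 110 CPM, a log2 ratio of -0.47 (-0.55 to -0.39). The amino acid transporter SLC38A2, at 176 CPM per kb, and CD36, at 127 CPM per kb, were the highest. SLC5A1, which carries glucose with sodium, SLC2A2 and SLC2A5, which carry glucose and fructose, and the peptide transporter gene SLC15A1 had no row.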
